A study of Homo sapiens with 30 samples.

Results

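The 10 genes described here are CCN1, CCN2, ANKRD1, AMOTL1, AMOTL2, LATS2, AXL, CRIM1, AJUBA and YAP1, that is, the coactivator YAP1 and 9 genes known as targets of YAP and TEAD. They were chosen by name, and all 10 were found among the 60675 genes of the count table. RNA had been sequenced from SW1783, a human astrocytoma cell line kept in L-15 medium, after 24 h with a herbal extract of traditional Korean medicine or with its vehicle. Water extracts of Sibjeondaebo-tang and Palmul-tang each had 3 libraries at 20, 100 and 500 µg/mL. Samul-tang, extracted in water, and Poria Cocos and Atractylodis Rhizoma, both extracted in ethanol, had 1 library at each of those doses. The vehicle, 0.1% DMSO, had 3 libraries, which gives 30 libraries in 16 groups. Sibjeondaebo-tang and Palmul-tang are multi-herb formulas built on Samul-tang, and Poria and Atractylodes are ingredients of both.

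YAP1 and its relative TAZ (gene WWTR1) are coactivators that have no DNA-binding domain of their own and act in the nucleus through TEAD factors. The kinases of the Hippo pathway, MST and then LATS, phosphorylate them and hold them in the cytoplasm, while cell spreading and actin tension release them. CCN1, CCN2 and ANKRD1 are the targets most often read as a measure of that activity, and several other targets, LATS2 and AMOTL2 among them, encode brakes that act back on YAP. The pathway is controlled largely through phosphorylation and location of the protein, which RNA levels do not show.

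TEAD factors are known to bind the letters GGAATG. Promoter windows from RefSeq (GRCh38.p14), from 250 bases before to 50 bases after a transcription start, were on hand for 8 of the 10 genes, in 11 windows. CCN1 and CRIM1 had none. The letters were searched on both strands. They stood in 7 of the 11 windows, against 14% of 35116 windows of all genes. These 7 windows belonged to 7 genes. The CCN2 window held 3 sites, a number reached by 0.128% of all windows, and the ANKRD1 window held 2, which 1.37% of windows reached. AMOTL2, AXL and AJUBA had 2 windows each, of which 1 held 1 site and the other none. LATS2 and YAP1 had 1 site each, that of LATS2 after the start, at 10 to 15. AMOTL1 had none. The 250 bases before the start are shown for both targets with more than 1 site and for YAP1 itself, with GGAATG in capitals; they lie at chr6:131951373-131951622 (minus strand), chr10:90921088-90921337 (minus strand) and chr11:102110197-102110446 (plus strand).
CCN2: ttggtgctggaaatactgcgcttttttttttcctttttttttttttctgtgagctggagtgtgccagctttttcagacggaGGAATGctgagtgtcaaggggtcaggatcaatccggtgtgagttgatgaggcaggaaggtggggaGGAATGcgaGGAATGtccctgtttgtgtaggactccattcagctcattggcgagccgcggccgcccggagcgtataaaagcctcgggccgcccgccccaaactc
ANKRD1: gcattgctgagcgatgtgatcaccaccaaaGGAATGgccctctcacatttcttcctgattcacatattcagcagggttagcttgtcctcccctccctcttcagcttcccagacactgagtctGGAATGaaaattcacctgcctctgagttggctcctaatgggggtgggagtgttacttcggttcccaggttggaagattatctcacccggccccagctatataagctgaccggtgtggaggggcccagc
YAP1: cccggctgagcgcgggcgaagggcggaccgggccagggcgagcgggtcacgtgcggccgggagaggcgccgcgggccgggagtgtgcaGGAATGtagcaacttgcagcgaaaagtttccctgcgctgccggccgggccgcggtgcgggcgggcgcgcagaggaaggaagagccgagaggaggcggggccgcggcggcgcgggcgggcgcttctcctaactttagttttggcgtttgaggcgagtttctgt

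Counted from the start, the CCN2 sites lie at -169 to -164, -104 to -99 and -95 to -90, so that the last pair is separated by 3 bases. The ANKRD1 sites lie at -220 to -215 and -128 to -123, and the YAP1 site at -162 to -157. The ANKRD1 window also held TGANTCA, a loose form of the AP-1 letters with any base at its centre, at -195 to -189, apart from its GGAATG sites. There it reads TGATTCA, not the TGACTCA or TGAGTCA of AP-1 factors. The loose pattern TGANTCA fits both strands at once and occurred in 7.71% of all windows. The CArG box, the motif of SRF, was in 1.29% of all windows and in none of the 11. A match says only that the letters are there.

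Total counts ran from 22.57 M to 37.82 M per library, and all 10 genes passed the filter on low counts that left 17839 genes for testing. The least counted was ANKRD1, with 162 to 344 counts per library, and the most counted was AXL, with 13368 to 23469. Of 8 astrocyte markers, GFAP, AQP4, S100B and ALDH1L1 did not exceed 0.183 CPM (counts scaled to the library total) in any library and SLC1A2 did not exceed 0.522 CPM, while SLC1A3, GLUL and SOX9 reached at least 20.6 CPM in all. The mesenchymal genes VIM, CD44, FN1 and COL1A1 were at 2660 CPM or more in every library, and the glioma marker NES was at 5.25 to 8.11 CPM. EPCAM, CDH1 and CDH5, of epithelium and endothelium, stayed at or under 0.348 CPM and the endothelial PECAM1 was at 0.358 to 1.48 CPM, while the blood markers PTPRC and CD68 were at 8.07 to 12.6 and 127 to 185 CPM. The 4 astrocyte markers that could be tested were SLC1A3, SLC1A2, GLUL and SOX9. At 500 against 20 µg/mL 3 of them fell in Sibjeondaebo-tang, against 2.79% of all genes, and 1 in Palmul-tang, against 2.47%. PECAM1 was not called between these doses in either formula, but it rose against vehicle at 500 µg/mL of Palmul-tang (log2 fold change 0.98). The part of these markers in the results below was not tested. Replicate 3 of Sibjeondaebo-tang at 500 µg/mL stood apart: its counts differed from those of its replicates with a chi-square per gene of 7.697 and 6.976, against 2.558 between the other two. Without it, the number of the 10 genes called at that dose was still 2 against 20 µg/mL and 7 against vehicle. At 100 µg/mL of Sibjeondaebo-tang replicates 1 and 2 also differed, at 6.326, against 3.953 and 3.618 for the other pairs.

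Levels in vehicle were ordered by TPM (here gene counts corrected for the merged length of all annotated exons of a gene). CCN1 stood highest at 487 ± 13.6 TPM (SD, n = 3 for all of these), then AXL at 438 ± 10, CCN2 at 260 ± 13.3 and CRIM1 at 152 ± 3.78. YAP1 was at 79.4 ± 2.62 and AJUBA at 43.4 ± 2.12. The 4 lowest were close together: AMOTL2 at 28.4 ± 0.659 TPM, AMOTL1 at 24.5 ± 0.796, LATS2 at 22.3 ± 0.0657 and ANKRD1 at 21.4 ± 0.701. Neighbours in this order were further apart than the sum of their SDs, with the narrowest gap between LATS2 and ANKRD1. The SDs do not cover the choice of length, on which the order of close genes depends. All values that follow are CPM with TMM scaling (a scaling between libraries) and compare a gene only with itself.

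The dose comparison within each formula asked which of the 10 genes differed between 500 and 20 µg/mL. CCN1 rose and ANKRD1 fell in both formulas, so that targets of the same pathway moved in opposite directions. CCN2 lay lower at 500 µg/mL in both, but its difference did not pass the test in either formula alone. The 7 other genes, YAP1 itself among them, differed by at most 0.09 on the log2 scale and were not called. In Sibjeondaebo-tang 2 of 10 genes were called, against 6.24% of all 17839 genes tested, with 1 up against 3.45% and 1 down against 2.79%. In Palmul-tang 2 of 10 were called against 5.3%, with 1 up against 2.83% and 1 down against 2.47%. In both formulas with the same sign, 3.52% of all genes were called. A call is a Benjamini-Hochberg adjusted p under 0.05 in the quasi-likelihood test of edgeR, over all tested genes. The median log2 fold change of the 10 genes was 0.03 in Sibjeondaebo-tang, against 0.001 over all genes, and -0.00 in Palmul-tang, against -0.001.

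CCN1 (ENSG00000142871, chromosome 1, 85580761 to 85583962 in GRCh38, plus strand) encodes a secreted matrix protein that binds integrins. Its libraries stood at 530, 496 and 552 CPM at 500 µg/mL of Sibjeondaebo-tang, against 404, 436 and 420 CPM at 20 µg/mL. In Palmul-tang they stood at 528, 556 and 539 CPM at 500 µg/mL, against 409, 406 and 436 CPM at 20 µg/mL. Every library at 500 lay above every library at 20 in both formulas, and no groups overlapped. The rise was 1.25-fold in Sibjeondaebo-tang, a log2 fold change of 0.32 ± 0.0366 (SE; edgeR, adjusted p = 4.72e-08). In Palmul-tang it was 1.3-fold, a log2 fold change of 0.38 ± 0.0367 (edgeR, adjusted p = 2.22e-09). Without replicate 3 of Sibjeondaebo-tang at 500 µg/mL, the log2 fold change was 0.29 (edgeR, adjusted p = 2.63e-07).

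ANKRD1 (ENSG00000148677, chromosome 10, 90912096 to 90921276, minus strand) encodes a nuclear ankyrin-repeat protein known from muscle, where it answers to stretch. In Sibjeondaebo-tang its libraries held 6, 6.05 and 6.77 CPM at 500 µg/mL, against 9.7, 10.8 and 10.1 CPM at 20 µg/mL. In Palmul-tang they held 6.13, 7.03 and 6.17 CPM at 500 µg/mL, against 9.7, 10.1 and 11 CPM at 20 µg/mL. The groups were again separate, with the 6 libraries at 500 all lower. Its log2 fold change was -0.70 ± 0.0844 in Sibjeondaebo-tang (edgeR, adjusted p = 1.94e-07) and -0.68 ± 0.0859 in Palmul-tang (edgeR, adjusted p = 7.02e-07), so that 0.616 of the level at 20 µg/mL was left in Sibjeondaebo-tang and 0.626 in Palmul-tang. Without replicate 3 of Sibjeondaebo-tang at 500 µg/mL it was -0.76 (edgeR, adjusted p = 2.28e-07). In bulk RNA, fewer cells of a kind and less RNA per cell cannot be told apart.

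CCN2 (ENSG00000118523, chromosome 6, 131948176 to 131951373, minus strand), also called CTGF, encodes a secreted matrix protein of the same family as CCN1 and is a known mediator of fibrosis. It had 90.8, 97.4 and 106 CPM at 500 µg/mL of Sibjeondaebo-tang, against 106, 127 and 124 CPM at 20 µg/mL. In Palmul-tang it had 88.3, 97.2 and 104 CPM at 500 µg/mL, against 112, 118 and 136 CPM at 20 µg/mL. The groups did not overlap in either formula, although in Sibjeondaebo-tang the nearest libraries of the 2 doses print as the same value. The log2 fold change was -0.28 ± 0.0989 in Sibjeondaebo-tang (edgeR, adjusted p = 0.128) and -0.34 ± 0.0997 in Palmul-tang (edgeR, adjusted p = 0.0701). Its spread between libraries of a group, 7.58 to 12.8 CPM as SD in these groups, was wide for its level. In DESeq2 it was called in both, with adjusted p = 0.0475 in Sibjeondaebo-tang and 0.0109 in Palmul-tang, and in edgeR on the compared groups only it was called in Sibjeondaebo-tang (adjusted p = 0.0208). CCN2 shares 195 exonic bases with an antisense gene, AL133346.1, to which 183 counts were assigned over all libraries, against 98904 for CCN2.

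**Figure D1:**
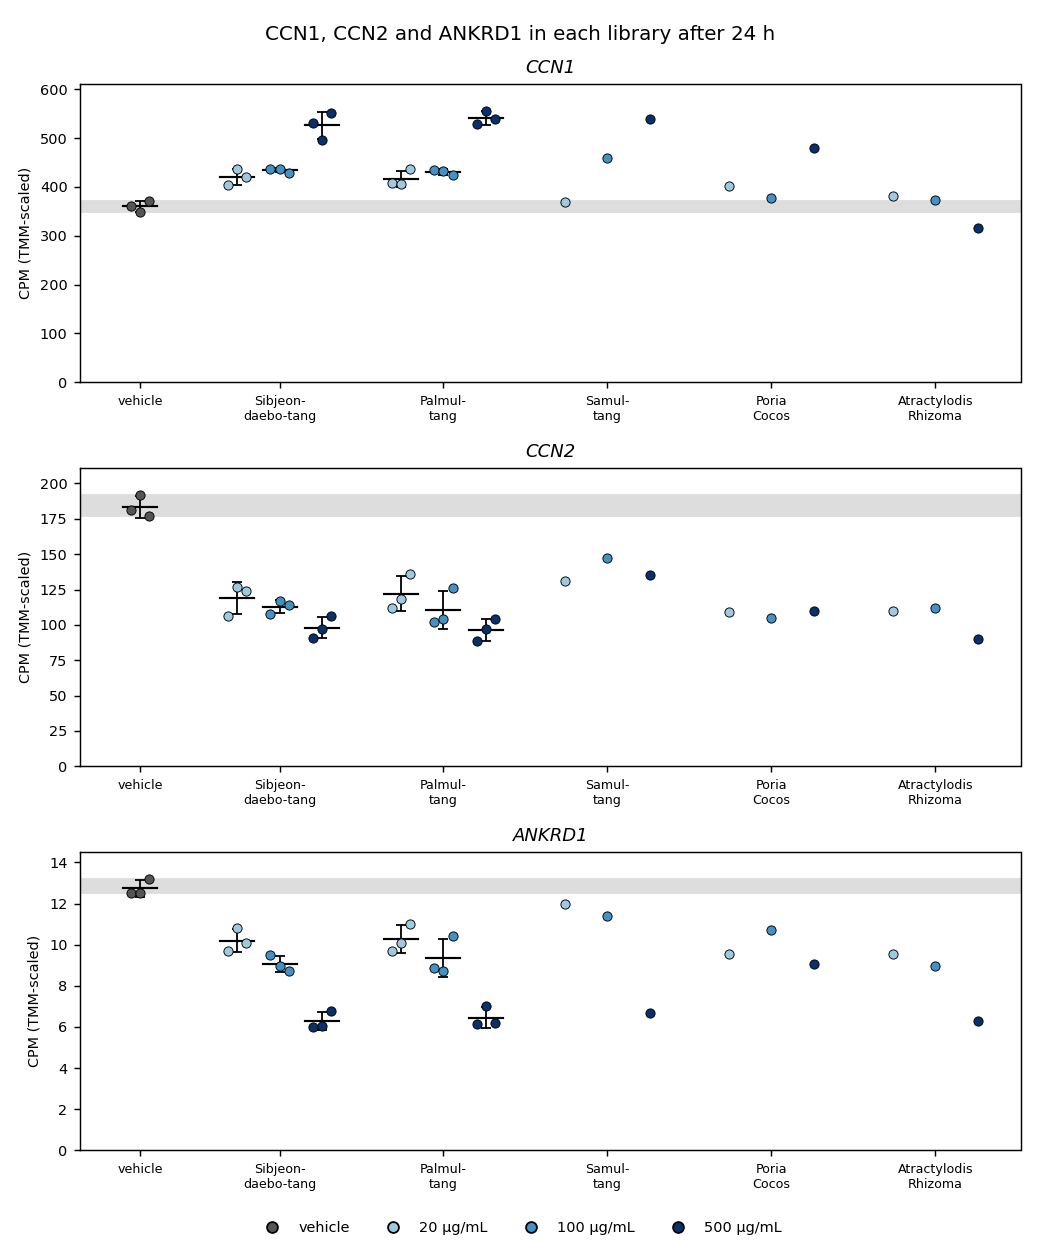
CPM of CCN1, CCN2 and ANKRD1 in each library (points; the bar and whiskers are the mean ± SD of 3 libraries), for vehicle and for 20, 100 and 500 µg/mL of each extract. The grey band spans the 3 vehicle libraries. The highest single library of CCN1 (556 CPM) is one at 500 µg/mL of Palmul-tang and the lowest of ANKRD1 (6 CPM) one at 500 µg/mL of Sibjeondaebo-tang; no treated library reaches the vehicle band of CCN2 or ANKRD1.

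The comparison over both formulas, with 6 libraries per dose, was added after the values had been seen. Here 3 of 10 genes were called, against 12% of all genes, with 1 up against 6.33% and 2 down against 5.69%. CCN1 had a log2 fold change of 0.35 ± 0.0259 (edgeR, adjusted p = 9.11e-13), ANKRD1 of -0.69 ± 0.0602 (edgeR, adjusted p = 6.94e-11) and CCN2 of -0.31 ± 0.0702 (edgeR, adjusted p = 0.00801). CCN2 averaged 97.2 CPM at 500 µg/mL and 121 CPM at 20 µg/mL. Its call was kept when any of the 12 libraries was left out, with adjusted p between 0.00325 and 0.0239. AJUBA, at 0.09, was not called (edgeR, adjusted p = 0.0847), but it was without the filter on low counts (adjusted p = 0.041), without replicate 2 of Sibjeondaebo-tang at 500 µg/mL (0.0236) and without replicate 2 of Sibjeondaebo-tang at 20 µg/mL (0.0445). At 500 against 100 µg/mL over both formulas 2 of 10 genes were called, against 6.49% of all genes, with CCN1 up against 3.3% and ANKRD1 down against 3.18%. At 100 against 20 µg/mL edgeR and DESeq2 each called 0 of the 10, against 0.516% of all genes in edgeR, where 1122 had an unadjusted p under 0.05.

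**Figure D2:**
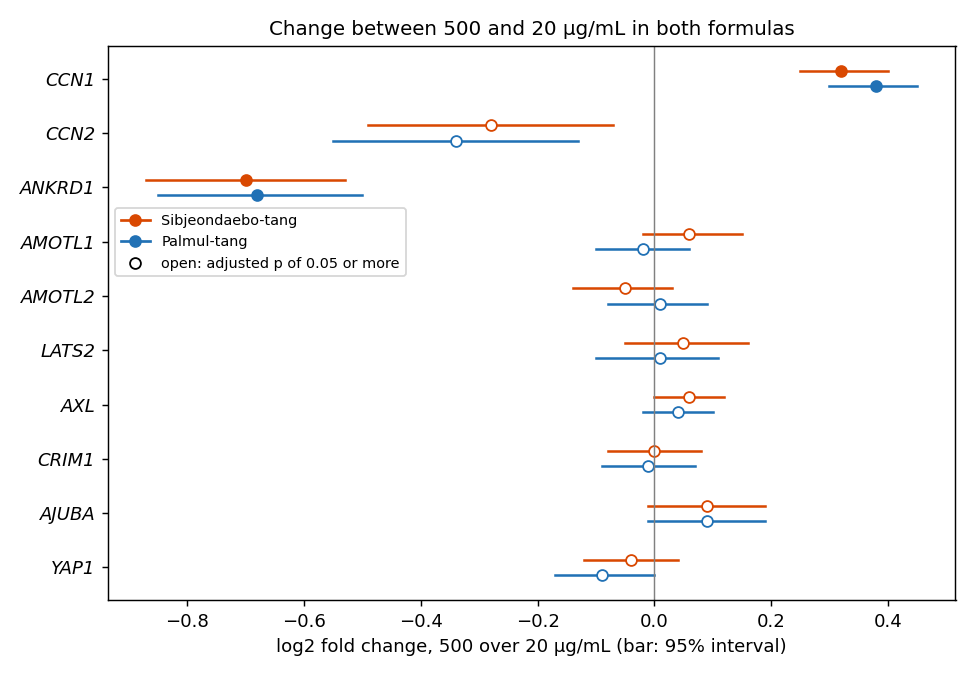
Log2 fold change of the 10 genes at 500 over 20 µg/mL with 95% intervals, in Sibjeondaebo-tang (orange) and Palmul-tang (blue); filled points have an adjusted p under 0.05. CCN1 lies right of 0 and ANKRD1 left of it in both formulas, CCN2 lies left of 0 with open points, and the points of the other 7 genes lie between -0.09 and 0.09.

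Among the regulators of the pathway, AMOTL1 and AMOTL2 encode motin proteins that hold YAP at junctions and actin. AMOTL1 (chromosome 11, 94706431 to 94876753) ran from 66.5 to 77.9 CPM and AMOTL2 (chromosome 3, 134355874 to 134375479) from 39.3 to 53.9 CPM over the 27 treated libraries. LATS2 (chromosome 13, 20973032 to 21061547), the kinase that phosphorylates YAP, averaged 32.7 CPM at 500 and 31.5 CPM at 20 µg/mL of Sibjeondaebo-tang. For LATS2 the 95% interval of the log2 fold change ran from -0.05 to 0.16 in Sibjeondaebo-tang and from -0.10 to 0.11 in Palmul-tang. AJUBA (chromosome 14, 22971174 to 22982642), a LIM protein that binds and inhibits LATS kinases, had 92.9, 84.5 and 95.5 CPM at 500 µg/mL of Sibjeondaebo-tang, against 84.1, 89.5 and 82.6 CPM at 20 µg/mL, and these overlapped. In Palmul-tang AJUBA had 91.5, 89 and 90.3 CPM at 500 µg/mL, against 80.5, 88.7 and 84.9 CPM at 20 µg/mL, without overlap. Its log2 fold change was 0.09 in both formulas, with intervals from -0.01 to 0.19, and was not called (edgeR, adjusted p = 0.344 in Sibjeondaebo-tang and 0.357 in Palmul-tang).

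YAP1 itself (chromosome 11, 102110461 to 102233423) had 155, 152 and 144 CPM at 500 µg/mL of Sibjeondaebo-tang, against 148, 163 and 153 CPM at 20 µg/mL. In Palmul-tang it had 155, 150 and 143 CPM at 500 µg/mL, against 164, 155 and 156 CPM at 20 µg/mL. The doses overlapped in Sibjeondaebo-tang and did not in Palmul-tang, where the nearest libraries print as the same value. Neither difference was called, at -0.04 on the log2 scale in Sibjeondaebo-tang (edgeR, adjusted p = 0.721) and -0.09 in Palmul-tang (edgeR, adjusted p = 0.272). Of the membrane proteins, AXL (chromosome 19, 41219203 to 41261766), a receptor tyrosine kinase for GAS6, averaged 624 CPM at 500 µg/mL in both formulas, against 598 CPM at 20 µg/mL of Sibjeondaebo-tang and 607 CPM at 20 µg/mL of Palmul-tang. CRIM1 (chromosome 2, 36355926 to 36551135), which binds growth factors of the BMP family, averaged 292 CPM at 500 and 293 CPM at 20 µg/mL of Sibjeondaebo-tang, and 295 CPM at 500 and 296 CPM at 20 µg/mL of Palmul-tang. Neither was called. In each formula 5 of 10 genes had no overlap between 500 and 20 µg/mL, against 18.9% of all genes in Sibjeondaebo-tang and 23.6% in Palmul-tang.

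**Figure D3:**
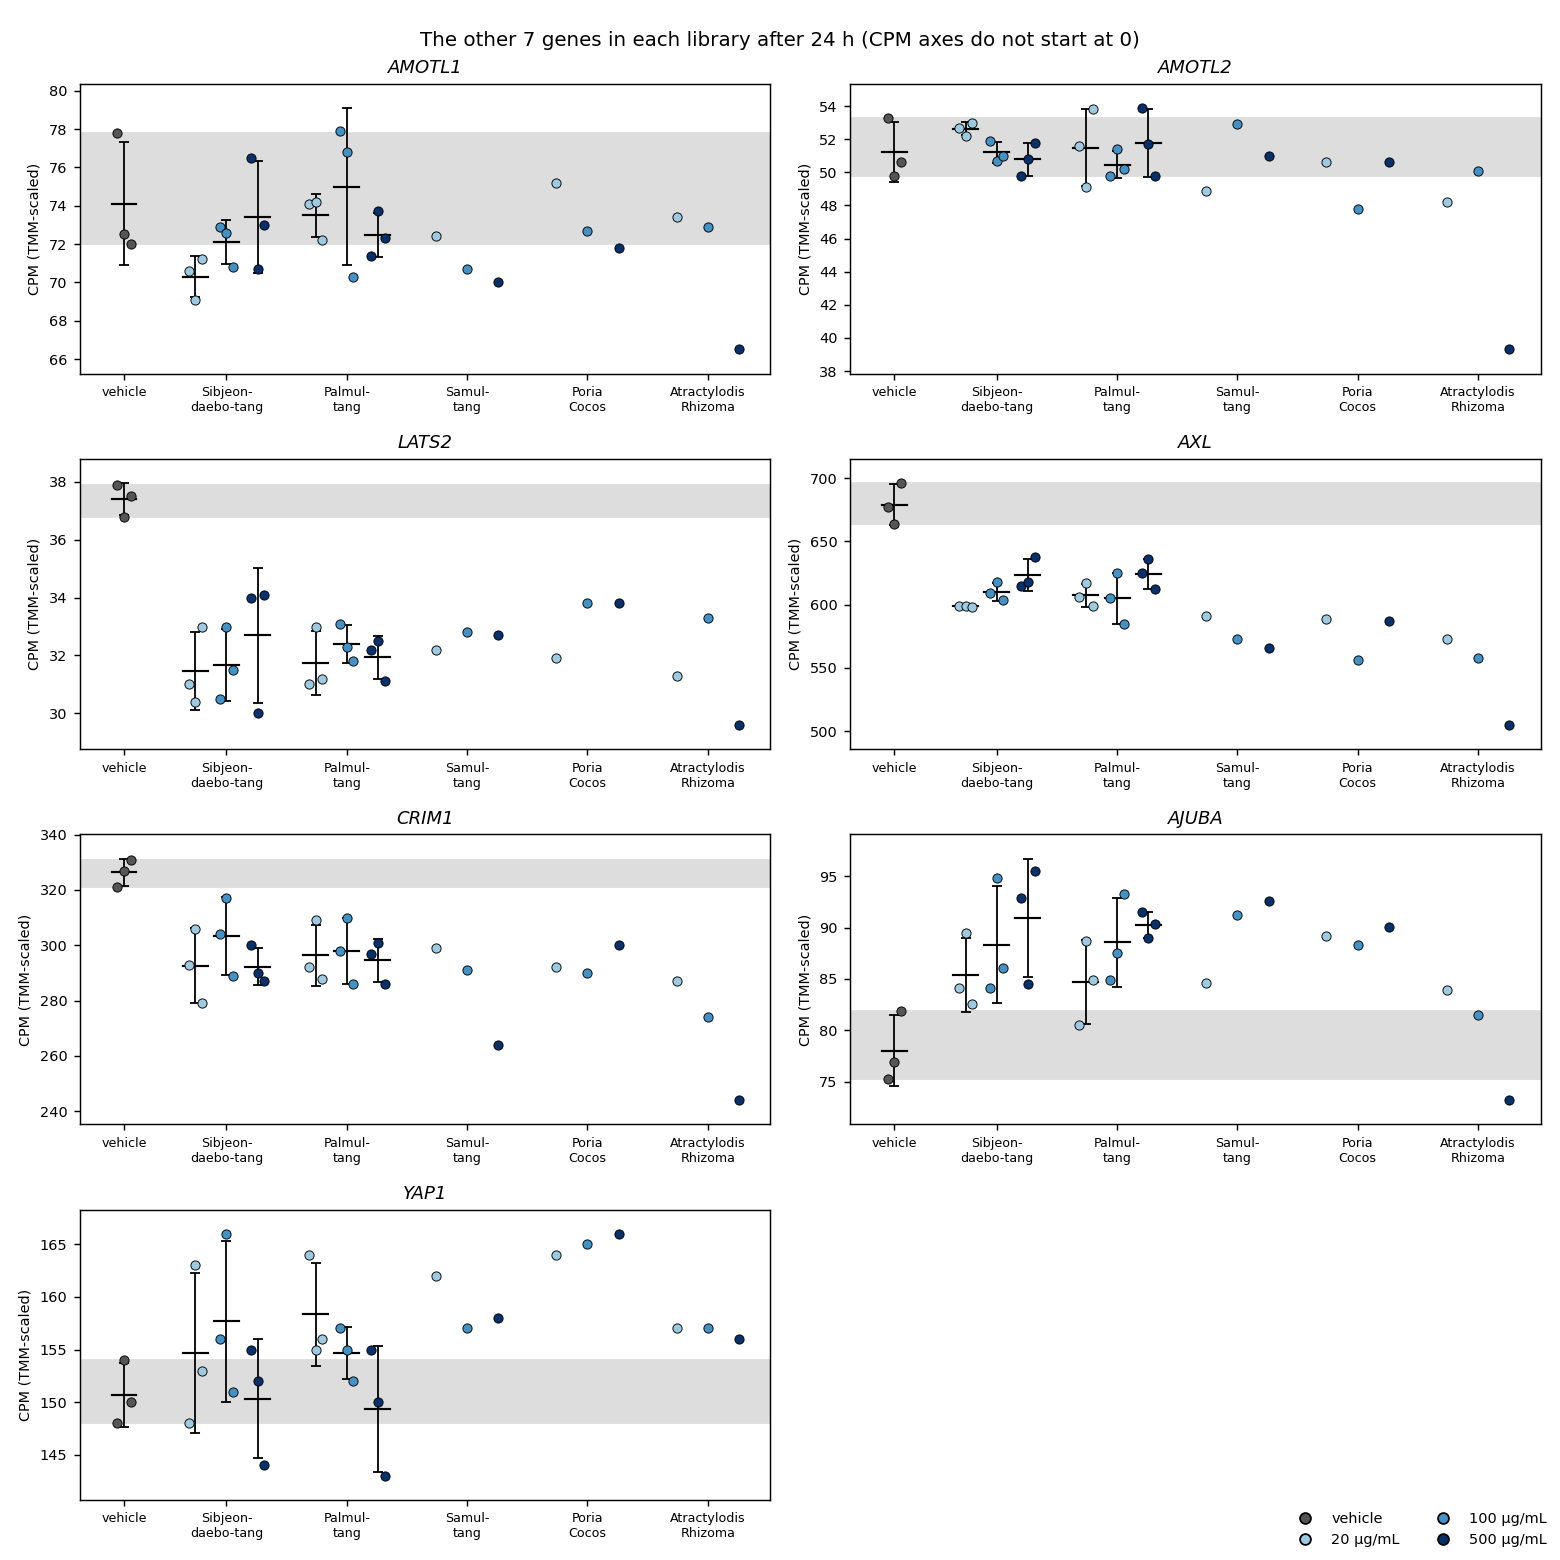
CPM of the other 7 genes in each library, drawn as in the plot of CCN1, CCN2 and ANKRD1 but with axes that do not start at 0. LATS2, AXL and CRIM1 lie under the vehicle band in all 27 treated libraries. The single Atractylodis Rhizoma library at 500 µg/mL is the lowest of all treated ones for each of the 7 but YAP1. The share of all genes lowest in that library was not computed.

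Most of the change lay between 100 and 500 µg/mL. At 500 against 100 µg/mL CCN1 and ANKRD1 were called in both formulas. These were 2 of 10 genes against 2.91% of all genes in Sibjeondaebo-tang (1 up against 1.67% and 1 down against 1.24%) and 2 of 10 against 2.49% in Palmul-tang (1 up against 1.35% and 1 down against 1.15%). CCN1 had 530, 496 and 552 CPM at 500 µg/mL of Sibjeondaebo-tang, against 436, 437 and 429 CPM at 100 µg/mL. In Palmul-tang it had 528, 556 and 539 CPM at 500 µg/mL, against 435, 433 and 424 CPM at 100 µg/mL. The doses were separate in both. The log2 fold change of CCN1 was 0.28 in Sibjeondaebo-tang and 0.33 in Palmul-tang, and that of ANKRD1 was -0.53 in each (edgeR, adjusted p between 1.01e-07 and 0.000133 over these 4 tests). At 100 against 20 µg/mL edgeR and DESeq2 called 0 of the 10 in either formula, against shares called by edgeR of 0.207% of all genes in Sibjeondaebo-tang, where 963 had an unadjusted p under 0.05, and 0.163% in Palmul-tang, where 779 had. ANKRD1 had 9.51, 8.98 and 8.73 CPM at 100 µg/mL of Sibjeondaebo-tang, against 9.7, 10.8 and 10.1 CPM at 20 µg/mL. These did not overlap (10.3% of all genes did not), at a log2 fold change of -0.17 (95% interval -0.33 to -0.01; edgeR, adjusted p = 0.89).

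The comparison of the formulas asked whether the added herbs of Sibjeondaebo-tang went with another response of these genes at the same dose. The doses are of whole extract, so added herbs and any changed share of the common ones cannot be told apart. None of the 10 genes, and no gene of the 17839 (0%), was called by edgeR at 20, 100 or 500 µg/mL, where 629, 478 and 863 genes had an unadjusted p under 0.05. DESeq2 called 2 genes at 500 µg/mL and 0 at 20 and 100 µg/mL, and edgeR without the filter on low counts called 3, 7 and 9 genes at 20, 100 and 500 µg/mL. None of these was one of the 10. At 500 µg/mL CCN1 averaged 526 ± 28.2 CPM in Sibjeondaebo-tang and 541 ± 13.8 CPM in Palmul-tang (SD, n = 3 each), a log2 difference of -0.04 with an interval from -0.11 to 0.03. ANKRD1 averaged 6.28 ± 0.433 CPM in Sibjeondaebo-tang and 6.45 ± 0.509 CPM in Palmul-tang, with an interval from -0.22 to 0.15. For CCN2 the interval was wider, from -0.19 to 0.24 around 0.02. The difference between the dose changes of the formulas was -0.05 (interval -0.16 to 0.05) for CCN1 and -0.02 (-0.27 to 0.22) for ANKRD1, and edgeR called none of the 10 and no other gene in it (716 at an unadjusted p under 0.05). DESeq2 also called 0 genes in it, and edgeR without the filter called 12, none of them among the 10. A p that misses the threshold does not show that the formulas act alike.

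Against vehicle, CCN2, ANKRD1, LATS2, AXL and CRIM1 fell at all 3 doses of both formulas and CCN1 rose at all 3. AJUBA rose at 100 and 500 µg/mL, and AMOTL1, AMOTL2 and YAP1 were called at no dose of either formula. At 20 µg/mL 6 of 10 genes were called in each formula, against 23.8% of all genes in both. That was 1 up, against 10.5% in both, and 5 down, against 13.3% in both. At 100 µg/mL 7 were called, against 24.6% in Sibjeondaebo-tang and 23% in Palmul-tang. These were 2 up, against 11.3% in Sibjeondaebo-tang and 10.2% in Palmul-tang, and 5 down, against 13.3% in Sibjeondaebo-tang and 12.8% in Palmul-tang. At 500 µg/mL 7 were called, against 25.1% in Sibjeondaebo-tang and 27.8% in Palmul-tang. These were 2 up, against 11.7% in Sibjeondaebo-tang and 12.9% in Palmul-tang, and 5 down, against 13.3% in Sibjeondaebo-tang and 14.9% in Palmul-tang. These comparisons share the same vehicle libraries. The library titles name the same batch, C, for vehicle and extracts. By their sample codes, however, the vehicle libraries form a set of their own, apart from the sets of the extracts. Treatment and any separate handling thus cannot be told apart here.

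CCN2 held 181, 192 and 177 CPM in vehicle, and all treated libraries were lower. At 20 µg/mL its log2 fold change over vehicle was -0.62 in Sibjeondaebo-tang and -0.59 in Palmul-tang. At 500 µg/mL it was -0.90 ± 0.0979 in Sibjeondaebo-tang (edgeR, adjusted p = 6.9e-06) and -0.92 ± 0.0986 in Palmul-tang (edgeR, adjusted p = 4.9e-06). The larger share of the distance to vehicle was thus present at the lowest dose. ANKRD1, with 12.5, 12.5 and 13.2 CPM in vehicle, divided the other way. Its log2 fold changes at 20, 100 and 500 µg/mL were -0.32, -0.49 and -1.02 in Sibjeondaebo-tang and -0.31, -0.45 and -0.99 in Palmul-tang. At 500 µg/mL it was at 0.493 of vehicle in Sibjeondaebo-tang (edgeR, adjusted p = 2.39e-11) and 0.505 in Palmul-tang (edgeR, adjusted p = 6.39e-11).

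CCN1 had 360, 349 and 371 CPM in vehicle, below every formula library. Its log2 fold changes at 20, 100 and 500 µg/mL were 0.22, 0.27 and 0.55 in Sibjeondaebo-tang and 0.21, 0.26 and 0.59 in Palmul-tang. It was 1.46-fold higher at 500 µg/mL of Sibjeondaebo-tang (edgeR, adjusted p = 1.88e-13) and 1.5-fold higher at 500 µg/mL of Palmul-tang (edgeR, adjusted p = 3.42e-14). AJUBA had 75.3, 76.9 and 81.9 CPM in vehicle and was 1.17-fold higher at 500 µg/mL of Sibjeondaebo-tang (edgeR, adjusted p = 0.0011) and 1.16-fold higher at 500 µg/mL of Palmul-tang (edgeR, adjusted p = 0.0018). At 20 µg/mL it was at 0.13 on the log2 scale in Sibjeondaebo-tang (edgeR, adjusted p = 0.0592) and 0.12 in Palmul-tang (edgeR, adjusted p = 0.0913). Without vehicle replicate 3 AJUBA was called at 20 µg/mL, with adjusted p = 0.0293 in Sibjeondaebo-tang and 0.0474 in Palmul-tang. At 100 µg/mL its call was lost without vehicle replicate 1, with adjusted p = 0.0572 in Sibjeondaebo-tang and 0.0626 in Palmul-tang. It was also lost without replicate 2 of Sibjeondaebo-tang at 100 µg/mL (adjusted p = 0.0919) and without replicate 3 of Palmul-tang at 100 µg/mL (adjusted p = 0.0558).

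LATS2, AXL and CRIM1 were lower than vehicle by about the same amount at every dose. LATS2 had 37.9, 36.8 and 37.5 CPM in vehicle, and over the 6 formula groups its log2 fold change lay between -0.25 and -0.19. AXL had 677, 664 and 696 CPM in vehicle and lay between -0.18 and -0.12. CRIM1 had 321, 327 and 331 CPM in vehicle and lay between -0.16 and -0.11. At 100 µg/mL of Sibjeondaebo-tang the CRIM1 value of -0.11 was close to the threshold (edgeR, adjusted p = 0.0397), and the call was lost without vehicle replicate 1 (adjusted p = 0.0512), 2 (0.0791) or 3 (0.138) and without replicate 1 (0.0863) or 3 (0.21) of that dose. At 100 µg/mL of Palmul-tang the CRIM1 call was lost without vehicle replicate 3 (adjusted p = 0.053) or replicate 3 of that dose (0.0856). LATS2 at 500 µg/mL of Sibjeondaebo-tang lost it without replicate 2, at -0.14 (edgeR, adjusted p = 0.0597).

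Over all extracts, each of the 27 treated libraries lay below each vehicle library for CCN2, ANKRD1, LATS2, AXL and CRIM1, as it did for 7.44% of all genes. CCN1 lay above vehicle in 25 of 27 libraries and AJUBA in 24. YAP1 lay above in 19, inside the vehicle range in 5 and below it in 3. The shares of genes called in the same direction at all 6 formula doses were 7.28% down and 4.95% up.

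**Figure D4:**
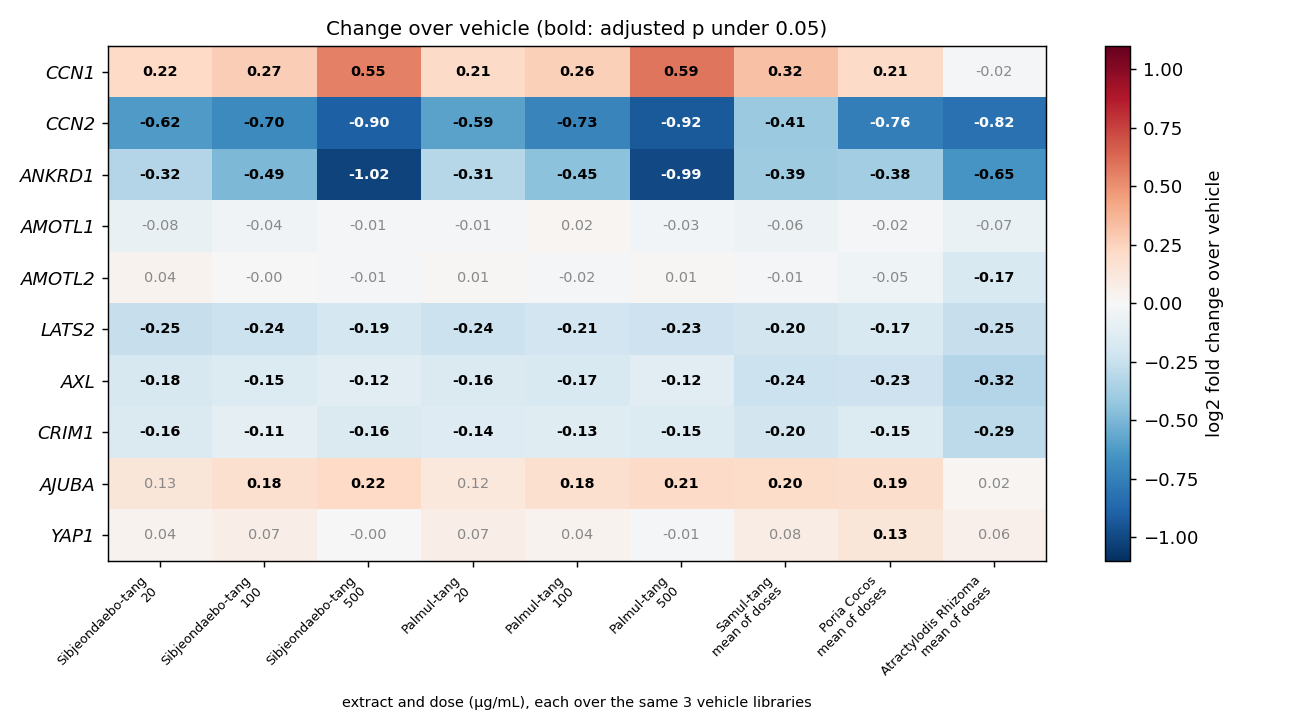
Log2 fold change over vehicle for the 10 genes (rows) at each dose of both formulas and for the mean of the 3 doses of the other extracts (columns); bold values have an adjusted p under 0.05. CCN2 and ANKRD1 are blue in all columns, with -1.02 for ANKRD1 at 500 µg/mL of Sibjeondaebo-tang as the lowest value, and CCN1 is red in all but Atractylodis Rhizoma.

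The mean of the 3 single libraries of an extract was set against vehicle in the same fit. For Samul-tang 7 of 10 genes were called against 27.7% of all genes, 2 up against 12% and 5 down against 15.7%, in the same directions as in the formulas. For Poria Cocos 8 were called against 27.3%, 3 up against 12.1% and 5 down against 15.3%. YAP1 was the added one, with 164, 165 and 166 CPM at 20, 100 and 500 µg/mL, against 148, 154 and 150 CPM in vehicle. All 3 lay above vehicle. Its log2 fold change was 0.13 ± 0.0401 (edgeR, adjusted p = 0.0117), and the call was lost without vehicle replicate 1 (adjusted p = 0.0663). The LATS2 call of Poria Cocos, at -0.17, was lost without the library at 20 µg/mL (adjusted p = 0.0595). For Atractylodis Rhizoma 6 were called against 27.7%, 0 up against 12.4% and 6 down against 15.3%, with AMOTL2 added and with CCN1 at -0.02 and AJUBA at 0.02. The AMOTL2 value of -0.17 was -0.06 without the library at 500 µg/mL (edgeR, adjusted p = 0.391). Likewise the ANKRD1 value of Samul-tang, -0.39, was -0.12 without the library at 500 µg/mL (edgeR, adjusted p = 0.338).

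Single libraries have no replicate check, and their values are given as a description. CCN1 stood at 369, 459 and 540 CPM at 20, 100 and 500 µg/mL of Samul-tang, at 402, 378 and 479 CPM of Poria Cocos and at 382, 373 and 315 CPM of Atractylodis Rhizoma. The Samul-tang libraries stood higher at each higher dose, and those of Atractylodis Rhizoma lower. ANKRD1 stood at 12, 11.4 and 6.7 CPM at the same doses of Samul-tang, 9.56, 10.7 and 9.06 CPM of Poria Cocos and 9.53, 8.95 and 6.27 CPM of Atractylodis Rhizoma. The 500 µg/mL libraries of Samul-tang and Atractylodis Rhizoma were at the level of the formulas at that dose, and that of Poria Cocos was not. CCN2 showed another order, with 131, 147 and 135 CPM in Samul-tang, the highest of all treated groups. These are single libraries set against means of 3 in the formulas, where replicate 3 at 20 µg/mL of Palmul-tang had 136 CPM. CCN2 had 109, 105 and 110 CPM in Poria Cocos and 110, 112 and 90.2 CPM in Atractylodis Rhizoma. The labels number the Samul-tang libraries as replicate 3 and those of the ethanol extracts as replicate 1. By their sample codes, Samul-tang, the formulas and the ethanol extracts form separate sets. Extract and any separate handling thus cannot be told apart when their levels are set side by side.

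In the 1 library at 500 µg/mL of Atractylodis Rhizoma, CCN1, AMOTL1, AMOTL2, LATS2, AXL, CRIM1 and AJUBA had their lowest value of all 27 treated libraries. The share of all genes that were lowest in that library was not computed, so whether this is particular to these genes is not known. AMOTL2 was at 39.3 CPM there, against 48.2 CPM at 20 µg/mL, and CRIM1 at 244 CPM, against 287 CPM. AXL was at 505 CPM, against 573 CPM. Between 500 and 20 µg/mL, a difference of at least 1.25-fold was passed by ANKRD1 alone in Atractylodis Rhizoma (0.658 of the level at 20), by CCN1 (1.47-fold) and ANKRD1 (0.56) in Samul-tang, and by none in Poria Cocos. Of 10291 better expressed genes, 1.14% were that much lower and 1.14% that much higher in Atractylodis Rhizoma, 1.64% lower and 1.66% higher in Samul-tang, and 1.22% lower and 1.42% higher in Poria Cocos.

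Other genes of the pathway were taken from lists chosen by function. Of 9 coactivators, TEAD factors and VGLL partners, 8 were tested, and VGLL1 had no count in any library. At 500 against 20 µg/mL 0 rose and 2 fell in Sibjeondaebo-tang (median log2 fold change -0.08, against 0.001 over all genes), and 0 rose and 1 fell in Palmul-tang (median -0.11, against -0.001). Of all genes 3.45% rose and 2.79% fell in Sibjeondaebo-tang in that comparison, and 2.83% rose and 2.47% fell in Palmul-tang. VGLL4, which competes with YAP for TEAD, fell by 0.23 on the log2 scale in Sibjeondaebo-tang (edgeR, adjusted p = 0.000416) and by 0.20 in Palmul-tang (edgeR, adjusted p = 0.00442). WWTR1, the gene of TAZ, was the other one in Sibjeondaebo-tang, at -0.15 (edgeR, adjusted p = 0.0234). Against vehicle at 500 µg/mL 0 rose and 5 fell in Sibjeondaebo-tang, where 11.7% of all genes rose and 13.3% fell. In Palmul-tang 0 rose and 4 fell, against 12.9% of all genes up and 14.9% down. WWTR1, TEAD4, VGLL3 and VGLL4 were called in both, with TEAD4 at -0.29 in Sibjeondaebo-tang and -0.38 in Palmul-tang, and TEAD3 was called in Sibjeondaebo-tang. WWTR1, TEAD3, TEAD4 and VGLL3 were chosen after their values were seen.

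Of the 19 genes of the Hippo kinase core and its inputs, 2 rose and 0 fell at 500 against 20 µg/mL in Sibjeondaebo-tang (median 0.01), against 3.45% of all genes up and 2.79% down. In Palmul-tang 3 rose and 0 fell (median 0.04), against 2.83% up and 2.47% down. FRMD6, a FERM protein upstream of the kinases, rose by 0.30 in Sibjeondaebo-tang (edgeR, adjusted p = 9.5e-07) and by 0.27 in Palmul-tang (edgeR, adjusted p = 8.31e-06). WWC1, also called KIBRA, which activates LATS kinases, rose by 0.29 in Sibjeondaebo-tang (edgeR, adjusted p = 5.01e-05) and by 0.22 in Palmul-tang (edgeR, adjusted p = 0.00283). LIMD1, a relative of AJUBA, was the third in Palmul-tang, at 0.17 (edgeR, adjusted p = 0.0398). Against vehicle at 500 µg/mL 4 rose and 2 fell in Sibjeondaebo-tang, against 11.7% of all genes up and 13.3% down, and 7 rose and 2 fell in Palmul-tang, against 12.9% up and 14.9% down. Those that fell were NF2, the tumour suppressor merlin, at -0.31 in Sibjeondaebo-tang and -0.28 in Palmul-tang, and WTIP, another relative of AJUBA, at -0.45 in Sibjeondaebo-tang and -0.51 in Palmul-tang. LIMD1, NF2 and WTIP were chosen after their values were seen.

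Of 15 other published YAP and TAZ targets, 5 rose and 1 fell at 500 against 20 µg/mL in Sibjeondaebo-tang (median 0.09), against 3.45% of all genes up and 2.79% down. In Palmul-tang 4 rose and 0 fell (median 0.08), against 2.83% up and 2.47% down. Those that rose in both were F3, NUAK2, GADD45A and NT5E. F3, tissue factor, rose by 0.59 on the log2 scale in Sibjeondaebo-tang and 0.61 in Palmul-tang, and NUAK2, a kinase, by 0.52 in Sibjeondaebo-tang and 0.53 in Palmul-tang. GADD45A, a DNA damage and stress gene, rose by 0.34 in Sibjeondaebo-tang and 0.32 in Palmul-tang, and NT5E, the ectonucleotidase CD73, by 0.19 in Sibjeondaebo-tang and 0.15 in Palmul-tang. Adjusted p in edgeR lay between 1.03e-14 for F3 and 0.0213 for NT5E, both in Palmul-tang. RBMS3 at 0.22 and GLI2 at -0.30 were called in Sibjeondaebo-tang and were chosen after their values were seen. Against vehicle at 500 µg/mL 5 rose and 5 fell in each formula, against 11.7% of all genes up and 13.3% down in Sibjeondaebo-tang and 12.9% up and 14.9% down in Palmul-tang.

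Of 11 SRF and MRTF targets, genes of the contractile actin apparatus that answer to the actin pool, 0 rose and 2 fell at 500 against 20 µg/mL in Sibjeondaebo-tang (median -0.05), against 3.45% of all genes up and 2.79% down. In Palmul-tang 0 rose and 4 fell (median -0.07), against 2.83% up and 2.47% down. ACTA2, smooth muscle actin, fell by 0.41 in Sibjeondaebo-tang (edgeR, adjusted p = 5.95e-10) and by 0.45 in Palmul-tang (edgeR, adjusted p = 1.62e-10). TPM1, a tropomyosin, fell by 0.18 in Sibjeondaebo-tang and by 0.21 in Palmul-tang. TAGLN at -0.16 and CNN2 at -0.12 were the other two in Palmul-tang and were chosen after their values were seen. Against vehicle at 500 µg/mL 0 rose and 9 fell in Sibjeondaebo-tang (median -0.32, against 0.003 over all genes), and 0 rose and 10 fell in Palmul-tang (median -0.27, against 0.001). Of all genes 11.7% rose and 13.3% fell in that comparison of Sibjeondaebo-tang, and 12.9% rose and 14.9% fell in that of Palmul-tang.

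**Figure D5:**
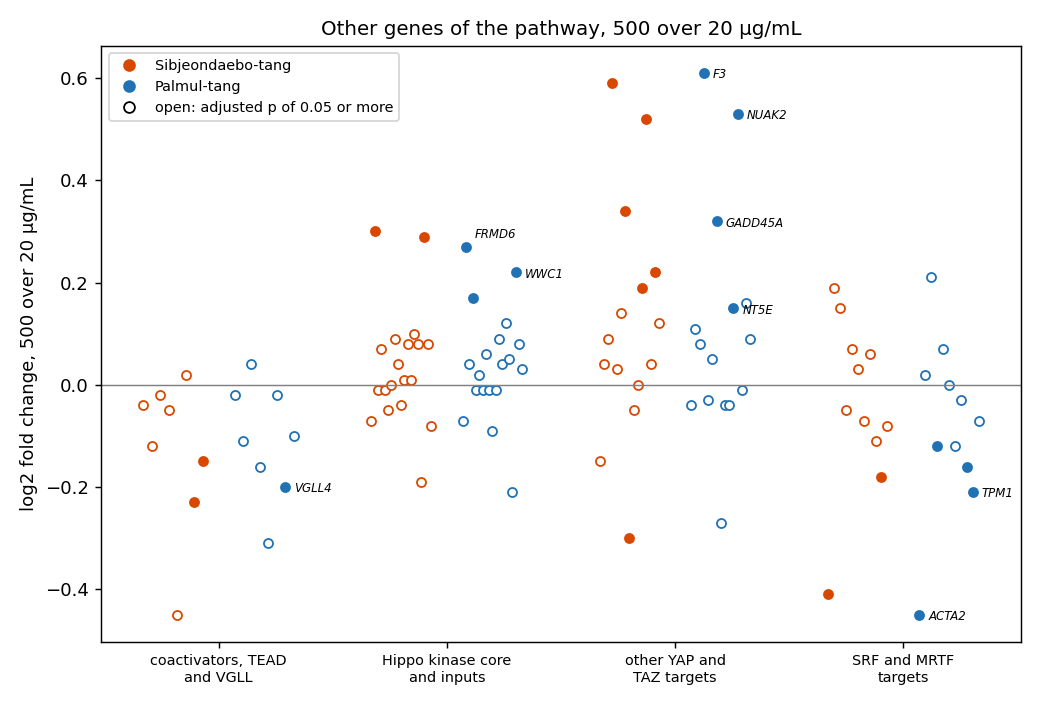
Log2 fold change at 500 over 20 µg/mL of each tested gene on the 4 lists, in Sibjeondaebo-tang (orange, left of each pair) and Palmul-tang (blue); filled points have an adjusted p under 0.05, and names mark genes called in both formulas. F3 lies highest, at 0.59 in Sibjeondaebo-tang and 0.61 in Palmul-tang, and ACTA2 is the lowest called gene, at -0.41 in Sibjeondaebo-tang and -0.45 in Palmul-tang; filled points of the SRF and MRTF list lie below 0.

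Across the 16 group means, which share one sequencing table and in part their extract, the 10 genes did not move as one. The groups of Samul-tang, Poria Cocos and Atractylodis Rhizoma hold 1 library each, and the groups fall in separate sets of sample codes. Vehicle is 1 of the 16 and lay above all treated libraries for CCN2, ANKRD1, LATS2, AXL and CRIM1, which bears on the correlations of these genes. Pearson's r of log2 CPM was 0.88 between AXL and CRIM1 and 0.84 between CCN1 and AJUBA, but -0.07 between CCN1 and CCN2 and -0.43 between CCN1 and ANKRD1. CCN2 and ANKRD1 had an r of 0.67. Among 12642 named genes above a minimum level (mean log2 CPM 1), the patterns most like CCN1 were those of PLK2 (r = 0.975), FAS (0.919) and TAF1D (0.915). PLK2, a kinase, had log2 fold changes at 500 over 20 µg/mL of 0.19 in Sibjeondaebo-tang and 0.21 in Palmul-tang, and FAS, a death receptor, of 0.26 in Sibjeondaebo-tang and 0.29 in Palmul-tang. The patterns most like ANKRD1 were those of CALD1 (r = 0.886), the actin binder caldesmon, LYPD1 (0.886) and LMO7 (0.877). At 500 over 20 µg/mL CALD1 had -0.20 in Sibjeondaebo-tang and -0.18 in Palmul-tang, and LMO7 had -0.35 in Sibjeondaebo-tang and -0.27 in Palmul-tang on the log2 scale.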

How the data were processed

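Per the labels' protocols, a strand-marking kit was used and fragments were sequenced at both ends, with reads of 100 bases. Per the submitters' processing notes, FastQC 0.11.9, Trim Galore 0.6.5, STAR 2.7.3a, RSEM 1.3.3 and the builds hg38 and GRCh38 were used; the annotation release and counting strand are not given in the sources used here. The authors deposited expected counts for each gene, of which 24% of the nonzero values are not whole; they were rounded. The table has 279 columns, 30 of them for these libraries; the other 249 per-sample columns were set aside. The series text gives another DMSO share and controls not analysed here. Symbols, positions and the exon lengths behind TPM came from GENCODE 29.

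Genes passed edgeR's filterByExpr (17839). A single quasi-likelihood model (edgeR 4.0.16, R 4.3.3, TMM scaling, robust setting) held 1 mean for each of the 16 groups and all 30 libraries, so groups of 1 library borrow the spread of the others. Calls were made at an adjusted p under 0.05. Intervals are at 95%; log2 CPM had a prior count of 2. On simulated counts for Palmul-tang at 500 against 20 µg/mL (17516 genes), 77.8% of genes changed 1.25-fold and 100% at 1.5-fold and 2-fold were recovered, and 10 of 200 calls were false. The changed genes were drawn only from those above a minimum level and were changed in that 1 group alone. They were fewer than the genes called in the data, so these rates do not cover low genes or comparisons with many calls. No label says that replicates were separate cultures, so the spread behind the p-values is that of these libraries and may be technical.

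Genes, lists and naming rules were chosen with earlier results of these data known. Named were all 10 genes, up to 4 genes per list called between 500 and 20 µg/mL in both formulas (mean log2 CPM of 1 or more, ranked by the larger p), and the 3 genes most like each called member. Exceptions are marked. Alternatives were DESeq2 1.42.0 (its size factors in edgeR, and its Wald test), no filter, fitting only the groups compared, adding a replicate block, thinning every library to the lowest total, and leaving out each library. The comparison over both formulas was added after the data were seen.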

Additional observations from a re-analysis of the deposited data

Results flagged for a closer look

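The dose difference of CCN1 ran the other way in Atractylodis Rhizoma than in the formulas. With 1 library per dose it was -0.28 on the log2 scale at 500 minus 20 µg/mL (315 against 382 CPM), where Sibjeondaebo-tang had 0.32 and Palmul-tang 0.38. AXL showed -0.18 in Atractylodis Rhizoma (505 against 573 CPM) and 0.06 in Sibjeondaebo-tang. AJUBA showed -0.20 in Atractylodis Rhizoma (73.2 against 83.9 CPM) and 0.09 in Palmul-tang. These cases were picked by these same values. In each formula named for a gene, every library at 500 µg/mL lay above every library at 20 µg/mL. In Atractylodis Rhizoma 1 library must lie on 1 side of the other, so separation says nothing there. For AXL in Palmul-tang (0.04) and AJUBA in Sibjeondaebo-tang (0.09) the doses overlapped. The values of AXL in Sibjeondaebo-tang and AJUBA in Palmul-tang were not called (edgeR, adjusted p = 0.313 and 0.357). The difference was not tested, since each dose of Atractylodis Rhizoma has 1 library. The largest range within a replicated group was 0.15 for CCN1, 0.09 for AXL and 0.18 for AJUBA.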

How the results depend on the processing

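Of 2880 recomputed values of the 10 genes over 22 comparisons, 2844 kept their side of the threshold, 18 lost a call, 18 gained one and 0 reversed. Among the 2844, 144 values called in neither setting changed sign. The number of the 10 genes called stayed within 1.5 times in every comparison. Over all genes, the compared groups alone gave 636 calls in place of 1113 at 500 against 20 µg/mL of Sibjeondaebo-tang and 237 in place of 520 at 500 against 100 µg/mL. Without the filter, 63 genes in place of 37 were called at 100 against 20 µg/mL of Sibjeondaebo-tang and 51 in place of 29 in Palmul-tang. Between the formulas, 3, 7 and 9 genes at 20, 100 and 500 µg/mL and 12 in the difference of their dose changes were called without the filter, and 2 at 500 µg/mL in DESeq2, in place of 0. CCN1 and ANKRD1 kept their calls at 500 against 20 µg/mL under all alternatives. CCN2 at these doses was called on the compared groups only in Sibjeondaebo-tang (adjusted p = 0.0208) and by DESeq2 in both formulas. AJUBA against vehicle at 20 µg/mL was called without the filter (adjusted p = 0.0122 in Sibjeondaebo-tang and 0.0359 in Palmul-tang), on the compared groups only (0.00946 in Sibjeondaebo-tang and 0.0164 in Palmul-tang) and by DESeq2 in Sibjeondaebo-tang (0.0411). YAP1 in Samul-tang was called on the compared groups only (0.0312). CRIM1 at 100 µg/mL of Sibjeondaebo-tang lost its call without the filter (adjusted p = 0.0702) and at the lowest depth (0.059). The causes were not tested.

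Whether replicate numbers pair the samples is not settled. In no replicated comparison were all correlations of same-numbered libraries over 0.1 (at 500 against 20 µg/mL 0.0694, -0.00657 and 0.179 in Palmul-tang). Within every formula group, however, CCN2 was lowest in replicate 1 and CRIM1 was lowest in replicate 3. In vehicle CCN2 was lowest in replicate 3 and CRIM1 in replicate 1. No other of the 10 genes was lowest in the same replicate of every formula group. With the replicate block 3 genes were called at 500 against 20 µg/mL in each formula, with CCN2 added (adjusted p = 0.00842 in Sibjeondaebo-tang and 0.00236 in Palmul-tang), CCN2 was called at 500 against 100 µg/mL over both formulas (0.00899), and YAP1 was called in Samul-tang (0.0234). The block changed no other call of the 10 genes. ANKRD1 rests on 162 to 344 counts per library.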
